A study of Mus musculus with 17 samples.

Results

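The genes described here mark eosinophils, basophils and mast cells, and comprise Epx, Prg2, Prg3, Ear1, Ear2, Ear6, Il5ra, Siglecf, Mcpt8 and Cpa3. They were chosen by symbol, and all 10 were found among the 35285 genes of the deposited expression table. Cochlear RNA was sequenced from 17 C57BL/6J mice, 1 library per mouse, obtained at 8 weeks of age and labelled wild type. The 3 control mice received saline intraperitoneally and no noise. The 7 mice of the noise exposure (NE) group were exposed to noise of 8 to 16 kHz at 100 dB for 2 h. The 7 mice of the brimonidine group were exposed likewise and were injected intraperitoneally 3 times with brimonidine, an agonist of alpha-2 adrenergic receptors, at 1 mg/kg, from the day before to the day after the noise. Whether the NE mice received vehicle was not given in the sources used here. The cochleae were collected 2 days after exposure, and the labels name the material cochlear cells and its cell type interstitial cells. The values are FPKM (fragments scaled by exon length and by the fragments counted in the library), so that levels of different genes could be compared per length. Libraries held 14457733 to 16080796 counted fragments in the control group, 15769236 to 18288854 in the NE group and 16624437 to 18224926 in the brimonidine group.

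Eosinophils, basophils and mast cells are granulocytes of allergic and antiparasite responses that mature in the marrow or, for mast cells, in the tissue. Eosinophil granules are built from major basic protein, an eosinophil peroxidase and small cationic ribonucleases, whose messages are made mostly while the cell matures in the marrow, whereas the interleukin-5 receptor and the lectin Siglec-F sit on the surface of the mature cell. Basophils and mast cells share the high-affinity IgE receptor and carboxypeptidase A3 but differ in their granule proteases, of which Mcpt8 belongs to mouse basophils.

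Of the granule genes, Epx encodes eosinophil peroxidase (ENSMUSG00000052234, chr11:87864000-87875536, minus strand of mm10). Prg2 encodes major basic protein (chr2:84980461-84983632, plus strand) and its paralog Prg3 lies downstream on the same strand (chr2:84988215-84993886). The eosinophil-associated ribonucleases Ear1 (chr14:43818765-43875517, minus strand), Ear2 (chr14:44102654-44103534, plus strand) and Ear6 (chr14:51853699-51854643, plus strand) are members of a family expanded by duplication. Because reads can be shared between such copies, their sequences were compared. The coding sequences of Ear1 and Ear2 were identical at 445 of 468 aligned bases (95.1%), those of Ear1 and Ear6 at 87.3% and those of Ear2 and Ear6 at 87.6%, against 64.1% for Prg2 and Prg3. The windows from 250 bases before to 50 bases after the start site, taken from RefSeq on GRCm38.p6, were alike as well, at 97.0% for Ear1 and Ear2, 80.7% for Ear1 and Ear6 and 79.0% for Ear2 and Ear6. The longest run of bases common to the 3 windows measured 57 bases. The part from 250 to 70 bases before the start site is printed 5′ to 3′ to show how close the 3 copies are, with that common run in capitals.
Ear1, chr14:43819709-43819889, minus strand: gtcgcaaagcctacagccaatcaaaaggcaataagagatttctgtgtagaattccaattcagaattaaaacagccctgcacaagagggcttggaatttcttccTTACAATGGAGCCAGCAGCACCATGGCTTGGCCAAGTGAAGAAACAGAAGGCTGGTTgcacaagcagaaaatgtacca
Ear2, chr14:44102404-44102584, plus strand: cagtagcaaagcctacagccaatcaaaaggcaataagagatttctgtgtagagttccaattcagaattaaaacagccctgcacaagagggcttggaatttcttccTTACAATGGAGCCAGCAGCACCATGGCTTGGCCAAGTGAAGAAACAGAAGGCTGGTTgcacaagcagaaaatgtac
Ear6, chr14:51853518-51853698, plus strand: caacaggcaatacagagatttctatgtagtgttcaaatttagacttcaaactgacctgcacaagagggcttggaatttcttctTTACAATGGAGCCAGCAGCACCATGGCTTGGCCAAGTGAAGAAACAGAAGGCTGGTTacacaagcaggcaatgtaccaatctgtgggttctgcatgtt

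The common run began 147 bases before the start site in Ear1, 145 in Ear2 and 167 in Ear6. Within the transcripts, 57.4% of all 50-base stretches of Ear1 and 41.5% of those of Ear2 also occurred in another gene, namely each other, Ear6, Ear10 and the pseudogenes Ear-ps9 and Ear-ps2, whereas this held for 0.954% of the stretches of Ear6, 1.01% of Il5ra, 0.206% of Siglecf and none of Epx, Prg2, Prg3, Mcpt8 and Cpa3. At 150 bases the shares were 5.67% for Ear1, 6.32% for Ear2 and 0.00% for Ear6. How reads matching several copies were counted was not given in the sources used here, so the separate levels of Ear1 and Ear2 are uncertain. Of the copies outside the 10 genes, Ear10 had a mean of 0.0398 FPKM, Ear-ps9 of 1.11 and Ear-ps2 of 0.109, whereas Ear1, Ear2 and Ear6, which also share stretches with one another, were abundant.

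The lineages of these cells depend on GATA factors, and the start-site windows were searched on both strands for the letters GATA with A or T before them and A or G after them. A window was found for 9 of the 10 genes, all but Prg2. The letters occurred in 4 of the 9, namely Prg3, Il5ra, Siglecf and Cpa3, and in 29.8% of the 32851 windows of all genes. In Siglecf they lay 3 and 12 bases after the start site. The 3 upstream matches are printed 5′ to 3′ over the 250 bases before the start site, to set an eosinophil granule gene, the receptor gene and the carboxypeptidase gene side by side, with the letters in capitals (on the opposite strand in Prg3, as TTATCA).
Prg3, chr2:84987965-84988214, plus strand: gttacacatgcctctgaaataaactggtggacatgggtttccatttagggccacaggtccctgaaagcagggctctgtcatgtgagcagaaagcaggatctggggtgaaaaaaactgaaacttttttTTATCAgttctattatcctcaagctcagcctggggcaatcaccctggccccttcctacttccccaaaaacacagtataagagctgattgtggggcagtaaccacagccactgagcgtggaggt
Il5ra, chr6:106749038-106749287, minus strand: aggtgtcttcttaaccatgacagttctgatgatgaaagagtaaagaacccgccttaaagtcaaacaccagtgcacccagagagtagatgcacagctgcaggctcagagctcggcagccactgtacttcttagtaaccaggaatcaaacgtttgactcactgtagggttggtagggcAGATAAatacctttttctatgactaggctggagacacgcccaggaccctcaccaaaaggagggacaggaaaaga
Cpa3, chr3:20242182-20242431, minus strand: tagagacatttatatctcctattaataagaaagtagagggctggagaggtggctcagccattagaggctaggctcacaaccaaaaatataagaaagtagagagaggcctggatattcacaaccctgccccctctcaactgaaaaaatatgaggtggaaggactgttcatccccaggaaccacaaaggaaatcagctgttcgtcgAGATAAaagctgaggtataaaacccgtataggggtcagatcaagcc

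The letters began 123 bases before the start site in Prg3, 74 in Il5ra and 46 in Cpa3. They were found in none of the 5 windows of Epx, Ear1, Ear2, Ear6 and Mcpt8.

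The 10 genes differed widely in level. Prg2 was the highest at a mean of 632.9 ± 159 FPKM (SD, n = 17), rank 46 of all genes in the table. Ear2 followed at 136.1 FPKM, Ear1 at 92.0, Ear6 at 82.0, Epx at 69.1, Prg3 at 32.1, Mcpt8 at 26.3, Cpa3 at 8.23, Siglecf at 5.03 and Il5ra at 0.995 FPKM. The granule proteins thus filled the top 6 places and the surface receptors the last 2. The order of neighbours held in all 17 libraries except for Ear1 above Ear6 (15 of 17), Ear6 above Epx (16 of 17) and Prg3 above Mcpt8 (14 of 17). Il5ra rested on only 21 to 97 fragments per library, Siglecf on 126 to 309 and Cpa3 on 112 to 309, whereas Prg2 rested on 4045 to 13164.

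**Figure D1:**
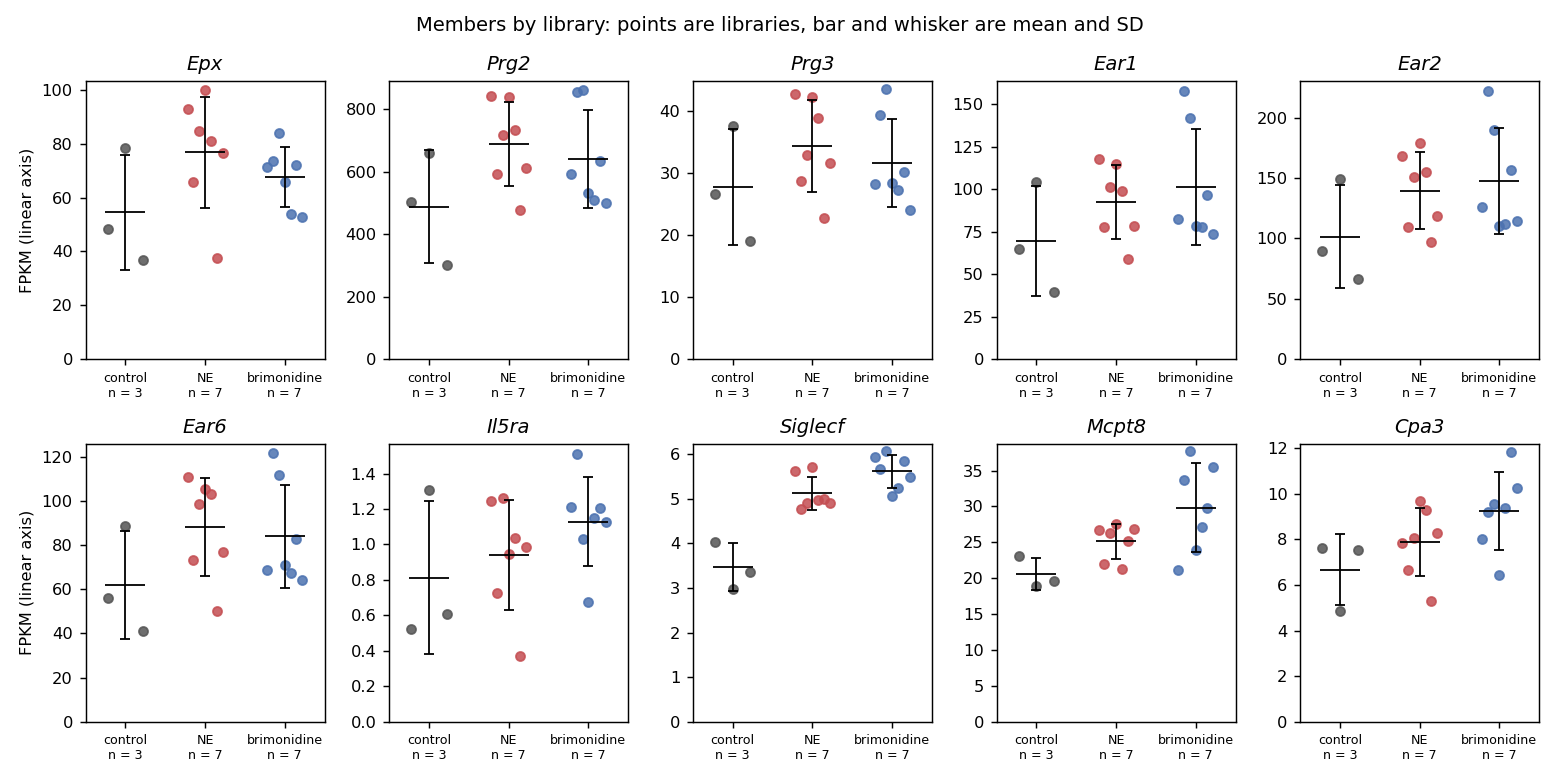
FPKM of the 10 genes (linear vertical axes from 0) in the control, NE and brimonidine groups, with 1 point per library and bars for mean and SD. Siglecf is the only gene whose 3 control points all lie below the 14 exposed points, and control 3 is the lowest point for each of the 6 granule and ribonuclease genes.

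Some libraries stood apart, which bears on every comparison with the control group. In control 2 the summed level of 8 neutrophil granule genes was 9647 FPKM, against 39600 to 64850 FPKM in the other 16 libraries, and its erythroid genes were the highest at 10810 FPKM against 1776 to 5997 elsewhere. The 8 cerebellar neuron genes summed to 173 to 465 FPKM in the controls, 4.33 to 14.9 FPKM in NE mice and 5.52 to 52.3 FPKM after brimonidine, the highest there being brimonidine 5. The cerebellar genes thus separated all 3 controls from all 14 exposed libraries (those of the NE and brimonidine groups), and their part in the results was not tested. Hair cell genes summed to 13.8 to 32.2 FPKM over all libraries and stria vascularis genes to 70.05 to 304.5 FPKM, so messages of both lists were found in each. Atp1b2 of the stria vascularis list averaged 107 ± 72.9 FPKM in the controls, 33.2 ± 4.76 in NE mice and 35.3 ± 4.63 after brimonidine. In bulk tissue, fewer cells of a type and less RNA per cell cannot be told apart.

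The first comparison, NE with control, asked which genes differed 2 days after noise. All 10 genes passed the filter on low values, and none was differentially expressed (limma adjusted p under 0.05 with the log2 fold change at or past 1 in size), beside 5.76% of the 15950 genes tested. By adjusted p alone Siglecf was higher, beside 2.12% of all genes called higher in this way, and by unadjusted p Siglecf and Mcpt8 were, beside 10.6%. The log2 fold changes of FPKM + 1 were positive for all 10 genes, from 0.10 for Il5ra to 0.54 for Prg2, with a median of 0.47 against a median of −0.044 over all genes tested, of which 43.9% were positive. The 10 values are not independent of one another, as the granule genes were correlated across libraries. Neutrophil genes had higher values still, with a median log2 fold change of 0.76 over 8 granule genes and 0.79 over 6 precursor genes, none of them called. Without control 2 those medians were 0.040 and 0.062, whereas that of the 10 genes was 0.67.

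Siglecf encodes Siglec-F, an inhibitory sialic acid receptor of mouse eosinophils that is also found on alveolar macrophages. It measured 4.04, 2.98 and 3.37 FPKM in control 1, 2 and 3. The NE libraries read 5.62, 4.78, 4.92, 5.70, 4.97, 5.00 and 4.90 FPKM for NE 1 to 7, and the brimonidine libraries 5.93, 5.67, 6.08, 5.06, 5.24, 5.84 and 5.50 FPKM. Every exposed library lay above every control, and the NE and brimonidine ranges overlapped. The group means were 3.46 ± 0.539 FPKM (SD, n = 3), 5.13 ± 0.372 (n = 7) and 5.62 ± 0.373 (n = 7). The log2 fold change was 0.46 (SE 0.090, 95% confidence interval 0.26 to 0.66, limma adjusted p = 0.00672) for NE with control, or 1.38-fold on the scale of FPKM + 1. For brimonidine with control it was 0.57 (SE 0.087, 95% confidence interval 0.38 to 0.77, limma adjusted p = 0.0018), or 1.49-fold. The exact two-sided permutation test gave p = 0.00833 in each of these comparisons, the smallest that 7 against 3 libraries allow. Of all genes tested, 3.24% lay wholly above the controls in NE mice and 5.07% did after brimonidine. Without control 2 the log2 fold changes were 0.38 (limma adjusted p = 0.0258) and 0.49 (limma adjusted p = 0.00393). The cerebellar genes separate the same 2 sets of libraries as Siglecf does. Their mean log2(FPKM + 1) had r = −0.86 with Siglecf over all 17 libraries. Within the 14 exposed libraries, over which Siglecf varied from 4.78 to 6.08 FPKM, r was 0.013. In those 14 the cerebellar genes summed to at most 52.3 FPKM, so that value cannot address the difference from control. The summed level of 8 macrophage genes was 272 to 316 FPKM in the controls, 309 to 364 in NE libraries and 308 to 381 in brimonidine libraries, and of these genes Csf1r, the macrophage growth factor receptor, was higher by adjusted p in both comparisons with control, and Adgre1, the macrophage antigen F4/80, was in brimonidine with control (log2 fold change 0.33, limma adjusted p = 0.0245, or 0.0512 without control 1 and 0.0569 without control 3). The call on Csf1r was lost without control 1, control 2 or control 3 (limma adjusted p from 0.0655 to 0.109 for NE with control and from 0.0594 to 0.0933 for brimonidine with control), and without most of the exposed libraries. The part of the cerebellar and macrophage genes in the difference of Siglecf was not tested.

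The granule genes had higher means in the NE group than in the controls, and none passed the test. Epx measured 48.5, 78.3 and 37.0 FPKM in control 1, 2 and 3. In NE 1 to 7 it read 92.9, 65.6, 84.6, 99.95, 80.9, 37.4 and 76.4 FPKM, and in brimonidine 1 to 7 it read 71.4, 73.4, 84.0, 65.8, 54.0, 72.2 and 52.9 FPKM. NE 1, 3, 4 and 5 lay above every control, whereas NE 6 lay at the level of the lowest control and control 2 among the exposed libraries, so the groups overlapped in part. The means were 54.6 ± 21.3 (n = 3), 76.8 ± 20.6 (n = 7) and 67.7 ± 11.1 FPKM (n = 7), and the log2 fold change for NE with control was 0.50 (95% confidence interval −0.16 to 1.15, limma adjusted p = 0.262). Prg2 measured 502.7, 660.5 and 300.2 FPKM in the controls. It read 842.9, 591.2, 717.1, 839.2, 733.4, 478.5 and 611.7 FPKM in NE 1 to 7 and 591.3, 854.0, 861.9, 531.3, 509.7, 633.9 and 498.8 FPKM in brimonidine 1 to 7. Its log2 fold change for NE with control was 0.54 (95% confidence interval −0.034 to 1.12, limma adjusted p = 0.175, exact permutation p = 0.075), with every NE library above the controls' mean log2 value and 4 of 7 above the highest control. Prg3, the paralog, averaged 27.8 ± 9.40, 34.4 ± 7.42 and 31.6 ± 7.12 FPKM in the control, NE and brimonidine groups, with a log2 fold change of 0.32 (limma adjusted p = 0.336). These intervals admit both no change and a log2 fold change of up to 0.82 to 1.15, and 3 controls leave that range unresolved.

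The ribonucleases also had higher means in the NE group, and none passed the test. Ear2 measured 89.5, 148.9 and 66.1 FPKM in the controls and ran from 96.8 to 179.5 FPKM with a median of 150.5 in NE mice and from 110.0 to 222.3 FPKM with a median of 126.3 after brimonidine. The log2 fold change for NE with control was 0.51 (limma adjusted p = 0.196). Ear1 measured 64.8, 104.1 and 39.6 FPKM in the controls, 58.8 to 118.0 in NE mice and 73.3 to 157.6 after brimonidine, and its log2 fold change was 0.48 (limma adjusted p = 0.26). Ear6 measured 56.0, 88.9 and 41.2 FPKM in the controls, 50.2 to 111.0 in NE mice and 64.4 to 121.8 after brimonidine, and its log2 fold change was 0.53 (limma adjusted p = 0.203). In each of the 3 genes control 2 was the highest control and lay inside the exposed range, control 3 was the lowest of all 17 libraries, and brimonidine 2 was the highest.

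**Figure D2:**
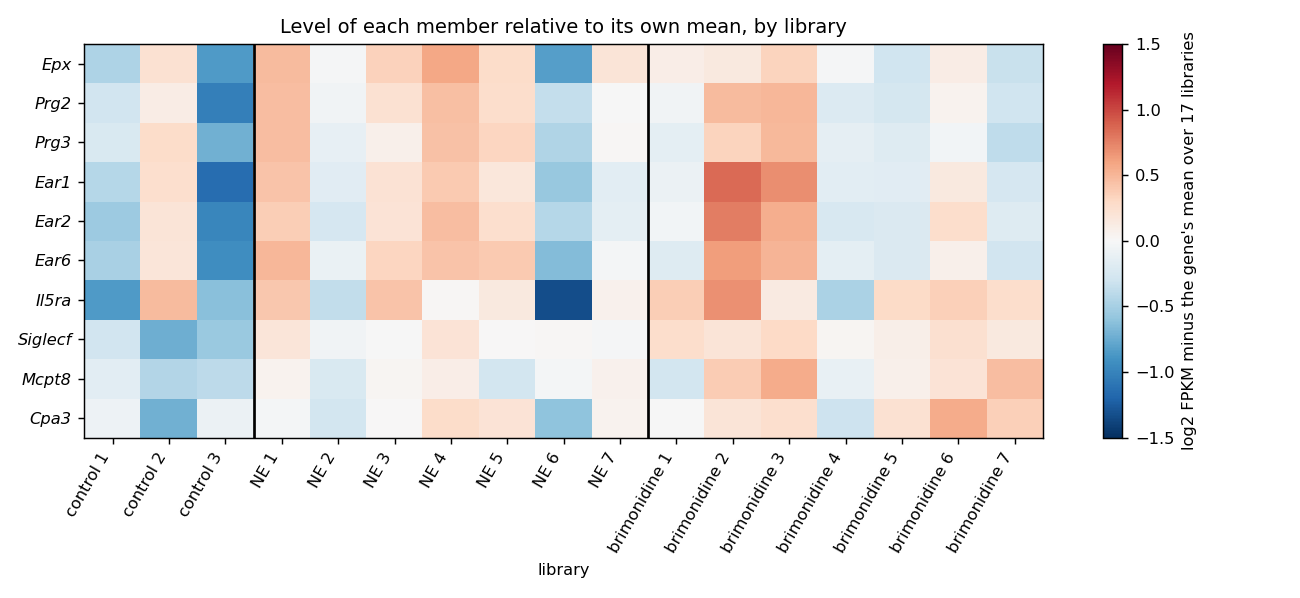
Log2 FPKM of each gene (rows) in each library (columns) minus the gene's mean over the 17 libraries, red above and blue below that mean, with lines between the control, NE and brimonidine groups. All of the 6 upper rows are low in control 3 and NE 6 and high in NE 1, NE 4 and brimonidine 3, and all but Epx are high in brimonidine 2, while Siglecf, Mcpt8 and Cpa3 are at their lowest in control 2.

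Il5ra, the ligand-binding chain of the interleukin-5 receptor, was the weakest of the genes. It measured 0.522, 1.31 and 0.609 FPKM in the controls, 0.372 to 1.26 FPKM in NE mice and 0.673 to 1.51 FPKM after brimonidine. The groups overlapped, and the log2 fold change for NE with control was 0.10 (95% confidence interval −0.30 to 0.51, limma adjusted p = 0.72). At so low a level the size of the value depended on the scale, being 0.21 with a pseudocount of 0.1, 0.24 with voom on recovered fragments and 0.28 with quantile scaling, none past the adjusted p. The spread between NE libraries had a coefficient of variation of 33.0%, of which counting alone would give 13.0%.

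Mcpt8 encodes mouse mast cell protease 8, a granzyme-like protease of basophils. It measured 23.1, 18.9 and 19.6 FPKM in the controls. The NE libraries read 26.8, 22.01, 26.3, 27.5, 21.3, 25.2 and 26.8 FPKM and the brimonidine libraries 21.2, 33.7, 37.8, 23.9, 27.2, 29.7 and 35.5 FPKM. In the NE group 5 of 7 libraries lay above the highest control, and in the brimonidine group 6 of 7, so the groups overlapped at control 1. The log2 fold change was 0.28 for NE with control (SE 0.10, limma adjusted p = 0.0924) and 0.50 for brimonidine with control (SE 0.17, limma adjusted p = 0.0673), so neither passed, although the exact permutation test of the gene alone gave p = 0.025 and p = 0.0333. By that test 2 of the 10 genes, Siglecf and Mcpt8, were higher in each comparison with control, beside 9.7% of all genes for NE and 13.2% for brimonidine. The permutation p of Mcpt8 rose to as much as 0.0833 and 0.111 when 1 library was left out, each without control 2 or control 3. Over 22 settings, the reported one included, limma's adjusted p was under 0.05 in 3 for NE and in 5 for brimonidine. Cpa3 encodes carboxypeptidase A3, a granule enzyme shared by mast cells, basophils and their precursors. It measured 7.61, 4.86 and 7.54 FPKM in the controls, 5.31 to 9.70 FPKM in NE mice and 6.46 to 11.85 FPKM after brimonidine. Its log2 fold changes were 0.21 (limma adjusted p = 0.406) and 0.42 (limma adjusted p = 0.103), and without control 2, where it was lowest, they were 0.031 and 0.24.

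The comparison of brimonidine with control, which uses the same 3 control libraries, gave none of the 10 genes as differentially expressed, beside 5.73% of 15947 genes. Siglecf was again the only one past the adjusted p alone, beside 3.47% of all genes called higher, and Siglecf, Mcpt8 and Cpa3 passed by unadjusted p, beside 13.6%. The log2 fold changes were positive for all 10 genes and ran from 0.21 for Prg3 to 0.58 for Ear1 (limma adjusted p = 0.514 and 0.208), with a median of 0.45 against −0.031 over all genes. Epx had 0.36, Prg2 0.43, Ear2 0.56, Ear6 0.46 and Il5ra 0.25, with limma adjusted p between 0.175 and 0.282. Il5ra had 0.50 with a pseudocount of 0.1, 0.55 with voom and 0.44 with quantile scaling, where it passed the adjusted p alone (limma adjusted p = 0.0467). Every brimonidine library was above the controls' mean log2 value for Epx, Prg2, Ear1, Ear2, Ear6, Siglecf and Mcpt8, and 6 of 7 were for Prg3, Il5ra and Cpa3.

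The values for the granule genes depended on which controls were included. Without control 3, the lowest of the 17 libraries for all 6 granule and ribonuclease genes, the median log2 fold change of the 10 genes fell from 0.47 to 0.24 for NE with control and from 0.45 to 0.22 for brimonidine with control. Without control 2 it rose to 0.67 and 0.57, and Epx then passed the adjusted p for brimonidine with control (log2 fold change 0.65, limma adjusted p = 0.0423). For NE with control, array weights gave control 3 a weight of 4.62, control 2 one of 0.0801 and NE 6 one of 0.289. NE 6 was the lowest NE library for the 6 granule and ribonuclease genes. For brimonidine with control, control 3 had 4.9 and control 2 had 0.0791. With these weights Epx, Prg2, Ear1, Ear2 and Ear6 were called higher in the NE group (log2 fold changes of 1.03 to 1.15, limma adjusted p from 0.000355 to 0.000736). Ear1 was called higher in the brimonidine group (1.07, limma adjusted p = 0.00175). Of all genes, 0.859% and 0.702% were called higher with these weights. By adjusted p alone 9 of the 10 genes, all but Cpa3, were then higher in each comparison with control, beside 14.3% of all genes for NE and 18.7% for brimonidine.

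**Figure D3:**
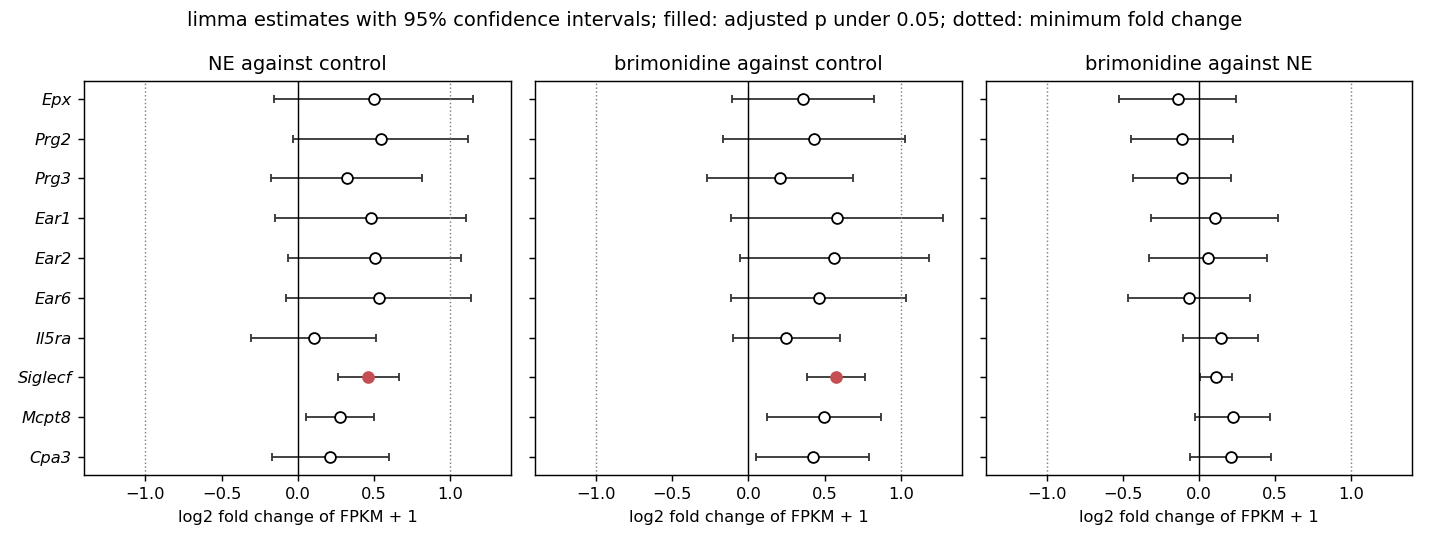
limma log2 fold changes of FPKM + 1 (horizontal axis) with 95% confidence intervals for the 10 genes in the 3 comparisons, filled where the adjusted p is under 0.05, with dotted lines at the minimum fold change. Siglecf is the only filled point, at 0.46 and 0.57 in the comparisons with control, and none is filled for brimonidine with NE.

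Brimonidine with NE asked whether treatment altered the genes after the same exposure. None of the 10 genes was differentially expressed, beside 0 of 15707 genes (0%). No gene of the 10 had groups that did not overlap, beside 0.102% of genes lying wholly higher, and none passed the adjusted p alone, beside 0.00637% of genes called higher. At an unadjusted p under 0.05 there was 1 of the 10, Siglecf, beside 3.3% of all genes higher. The log2 fold changes were positive for 6 genes and negative for 4, with a median of 0.081 against 0.015 over all genes. The granule genes Epx, Prg2, Prg3 and Ear6 had −0.14, −0.11, −0.11 and −0.069, and the intervals of Epx (−0.52 to 0.24) and Prg2 (−0.45 to 0.22) excluded a change past the minimum fold in either direction. Leaving out 1 library at a time moved Epx to between −0.30 and −0.069. Its exact permutation p fell under 0.05 only without NE 6 (−0.30, p = 0.0361). The direction of Ear1 (0.10) and Ear2 (0.059) changed when brimonidine 2 was left out, to −0.014 and −0.048. Siglecf had 0.11 (95% confidence interval 0.0060 to 0.22, limma adjusted p = 0.857, exact permutation p = 0.0321, the only 1 of the 10 under 0.05 by that test, beside 3.81% of all genes higher), with 6 of 7 brimonidine libraries above the mean log2 value of the NE group. Leaving out 1 library at a time moved that permutation p to 0.0653 at most. Mcpt8 had 0.22 (limma adjusted p = 0.871) and Cpa3 0.21 (limma adjusted p = 0.883). Il5ra had 0.14 (limma adjusted p = 0.903), or 0.29 with a pseudocount of 0.1 and 0.31 with voom. In each of these genes the groups overlapped, with 4, 2 and 1 of 7 brimonidine libraries above every NE library. For Mcpt8 (exact permutation p = 0.107) that test passed 0.05 only without brimonidine 1 (0.295, exact permutation p = 0.0251). For Cpa3 (exact permutation p = 0.16) it did so only without brimonidine 4 (0.28, exact permutation p = 0.0379).

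The granule genes varied together from mouse to mouse. Over the 14 exposed libraries, the 15 pairs among Epx, Prg2, Prg3, Ear1, Ear2 and Ear6 had Pearson r of log2(FPKM + 1) from 0.731 to 0.976, with a median of 0.935, and without the 2 libraries farthest from the median of the gene on the x axis r stayed between 0.578 and 0.966. Prg2 and Prg3 had r = 0.97 (rho = 0.969), Ear1 and Ear2 0.976 (rho = 0.947), and Epx and Prg2, on different chromosomes, 0.847 (rho = 0.868). The points share libraries and their depth, and Ear1 and Ear2 share sequence. Mcpt8, Cpa3 and Siglecf had a median r of 0.406 with the 6 genes, from 0.0341 for Epx and Mcpt8 to 0.591 for Ear2 and Siglecf, and 0.525 to 0.567 among themselves. Without the 2 farthest libraries these ran from −0.129 to 0.553 and from 0.294 to 0.492. Il5ra had 0.466 to 0.658 with the 6 genes and 0.172 to 0.648 without the 2 farthest libraries, the lowest being with Epx (rho = 0.332 over all 14). Its r of 0.741 with Cpa3 fell to 0.337 without the 2 farthest libraries and had rho = 0.288, so that relation rested on those libraries.

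**Figure D4:**
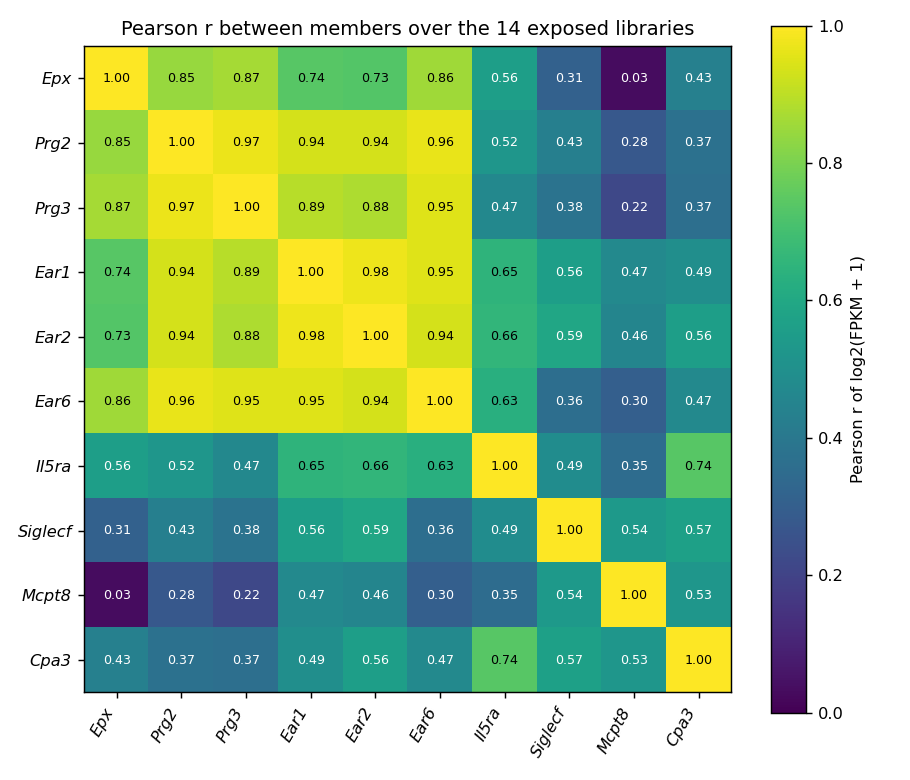
Pearson r of log2(FPKM + 1) between each pair of the 10 genes over the 14 exposed libraries, as a colour scale from 0 to 1 with each value printed. The 6 granule and ribonuclease genes form a block with r of at least 0.73, and their values with Siglecf, Mcpt8 and Cpa3 are all lower, at 0.03 to 0.59.

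The spread of the granule genes exceeded counting error by far. Among the 7 NE libraries the coefficient of variation was 26.8% for Epx and 19.6% for Prg2, where counting alone would give 1.65% and 0.995%. Siglecf, in contrast, varied by 7.27% with 6.33% from counting, so its NE libraries differed by little more than counting error. Ratios of some pairs varied less than the levels. Prg3 per Prg2 was 0.0512 ± 0.00436 (SD, n = 17), a coefficient of variation of 8.52% against 23.4% for Prg3 itself, and Ear1 per Ear2 had 6.58% against 32.2% for Ear1. Ear2 per Prg2 ran from 0.185 to 0.214 in NE mice and from 0.207 to 0.26 after brimonidine, an overlap that left means of 0.202 ± 0.0105 and 0.228 ± 0.0189. Ear2 per Epx reached 3.03 after brimonidine and 2.59 in NE mice, and its coefficient of variation in the brimonidine group, 20.4%, was above the 16.4% of Epx itself, so the 6 genes did not keep a fixed proportion.

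The granule genes and the neutrophil genes had no single relation across libraries. Control 2, with the fewest neutrophil granule messages, ranked between 5 and 8 of 17 for the 6 genes, and NE 6, with the most (64850 FPKM), ranked 15 or 16. Brimonidine 2 and brimonidine 3, next in neutrophil messages at 57730 and 50450 FPKM, ranked 1 or 2 for Prg2, Ear1, Ear2 and Ear6, and 8 and 4 for Epx. Epx per 1000 FPKM of neutrophil granule genes was 8.11 in control 2 and 0.577 to 2.29 in the other 16 libraries. For correlations each list was taken as the mean log2(FPKM + 1) of its genes, not as their sum. Over the 14 exposed libraries the neutrophil granule genes had r = −0.41 with Epx, 0.028 with Prg2 and 0.089 with Siglecf. B cell genes had r = 0.72 with Epx and 0.69 with Prg2, and erythroid genes 0.51 and 0.65, whereas cerebellar genes had −0.12 and −0.15. These lists share libraries with the 10 genes, and the share of marrow or blood in each sample was not measured.

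**Figure D5:**
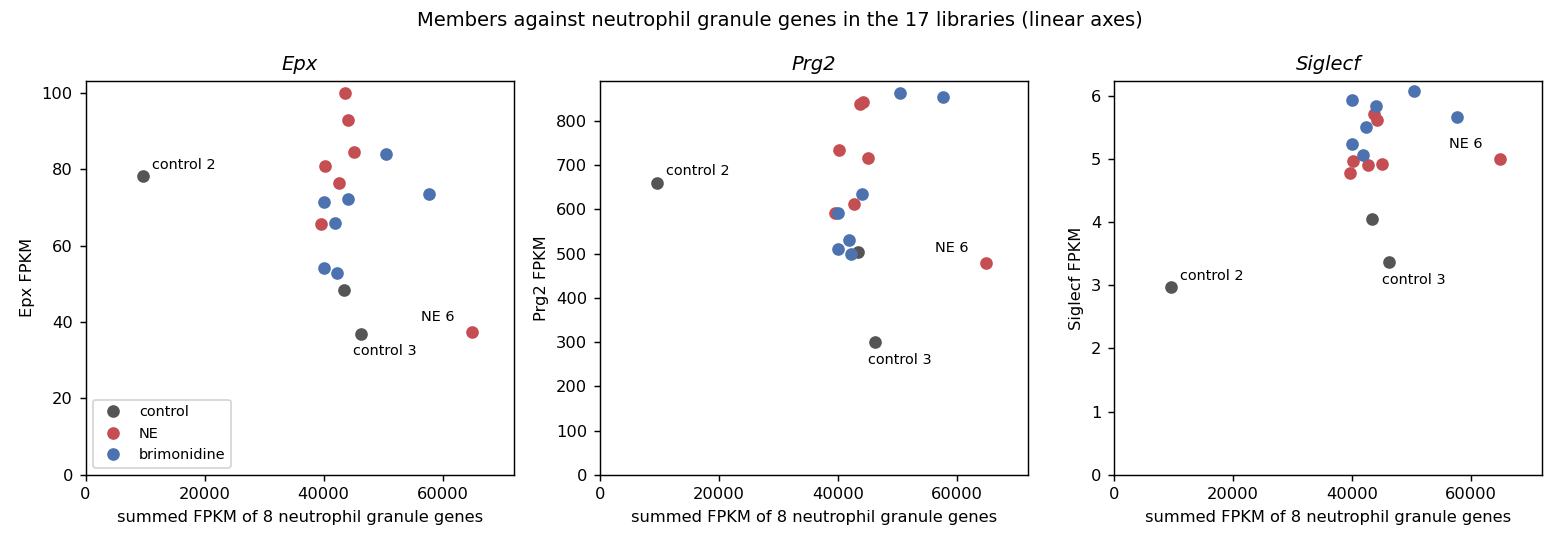
FPKM of Epx, Prg2 and Siglecf (vertical axes) against the summed FPKM of 8 neutrophil granule genes (horizontal axis, linear) in the 17 libraries, coloured by group. Control 2 lies alone at 9647 FPKM of neutrophil genes with Epx and Prg2 inside the exposed range and Siglecf at its lowest, and NE 6 lies farthest right with low Epx.

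Across all genes, the pattern most like the mean of Epx and Prg2 over the 14 exposed libraries outside the 10 was that of Gm8113 (r = 0.864, rho = 0.947), a protein-coding gene at chr14:43925390-43933411 between Ear1 and Ear2, with a mean of 22.9 FPKM. Then came Slc6a9, a glycine transporter (r = 0.801), Acss1, a mitochondrial acetyl-CoA synthetase (0.783), Parp16 (0.774) and Fam46c (0.773). Over all 17 libraries Gm8113 again led (0.911), followed by Rsad2, an interferon-induced antiviral enzyme (0.847), Ctse, the protease cathepsin E (0.832), Acss1 (0.814) and Gm38825 (0.802), against a median of −0.0125 over all 16416 genes.

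Other eosinophil genes were described from lists. Of the 7 genes for surface receptors and enzymes, none was differentially expressed in any comparison, and by adjusted p alone Siglecf was higher in NE mice (beside 2.12% of all genes higher), and Siglecf and Alox15 after brimonidine (beside 3.47%), each against control. Alox15, the arachidonate lipoxygenase of eosinophils and macrophages, averaged 19.5 ± 1.71 FPKM in the controls, 27.2 ± 5.46 in NE mice and 28.7 ± 4.57 after brimonidine (log2 fold change 0.52 for brimonidine with control, limma adjusted p = 0.0241, or 0.0602 without control 3). Ccr3, the eotaxin receptor, named after its values were seen, averaged 2.26 ± 0.39 FPKM in NE mice and 4.05 ± 0.988 after brimonidine, with overlapping ranges and a log2 fold change of 0.62 (limma adjusted p = 0.172). Of the 10 growth and recruitment signals 5 passed the filter and none was called in any comparison. Il5, the eosinophil growth factor, averaged 0.0561 FPKM, and the most abundant were Ccl8 (14.0 FPKM), Ccl5 (11.8 FPKM) and Il33 (4.09 FPKM). None of the 10 receptor partners and IL-5 signalling genes and none of the 10 transcription factors was called, beside 5.76%, 5.73% and 0% of all genes for NE with control, brimonidine with control and brimonidine with NE, so that the absence of calls is no feature of these lists. The most abundant receptor partners were Csf2ra, the GM-CSF receptor alpha chain (155 FPKM), the common beta chain Csf2rb (84.9 FPKM) and the kinase Lyn (58.9 FPKM). The most abundant transcription factors were Xbp1, a factor of secretory cells (152 FPKM), Spi1, which encodes PU.1 (121 FPKM), and Cebpe, a factor of terminal granulocyte maturation (118 FPKM), with Gata1 at 9.19 FPKM.

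Of the basophil genes other than Mcpt8, Prss34, a basophil serine protease, averaged 52.3 FPKM. Fcer1a, the IgE-binding chain of the IgE receptor, averaged 4.65 FPKM and Ms4a2, its beta chain, 4.16 FPKM, and mast cells share that receptor. Lower in the same list were Il6 at 0.613 FPKM, Cd200r3 at 0.489 and Il13 at 0.0368. Of the 10 basophil genes 7 passed the filter, and by adjusted p alone Il4 was lower in brimonidine with control (5.05 ± 3.16 against 2.30 ± 0.412 FPKM, log2 fold change −0.77, limma adjusted p = 0.0488), beside 12.3% of all genes called lower in this way. Il4 measured 3.21, 8.7 and 3.24 FPKM in control 1, 2 and 3, and without control 2 the log2 fold change was −0.37 (limma adjusted p = 0.0996). The call was also lost without any 1 of the brimonidine libraries other than brimonidine 5 (limma adjusted p from 0.0758 to 0.0844). Markers that define mature mast cells averaged 3.10 FPKM for Mcpt4, 2.24 for Tpsb2, 1.93 for Cma1 and 0.0762 for Tpsab1. Of the 12 mast cell genes 6 passed the filter. Kit, the stem cell factor receptor of mast cells and of blood progenitors, was lower by adjusted p alone, at 11.0 ± 2.32 FPKM in the controls, 6.84 ± 0.742 in NE mice and 6.76 ± 0.671 after brimonidine (log2 fold changes −0.61 and −0.62 with limma adjusted p = 0.00781 and 0.00555), beside 12% and 12.3% of all genes lower. It kept an adjusted p under 0.05 when any 1 library was left out, at most 0.0301 for NE with control and 0.0173 for brimonidine with control. Kit is also made by neurons, and the cerebellar genes were highest in the same 3 controls. Their part in the difference was not tested.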

How the data were processed

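The authors deposited FPKM values for 35285 genes in 17 libraries, made from strand-specific mRNA libraries. The submitters' processing notes name Trimmomatic, HISAT2, HTSeq, Cufflinks and mm10 without versions or roles. FPKM multiplied by merged exon length (GENCODE M21) gave whole fragments for 91.6% of the values above 0 (within 0.02, and more loosely above 1000 fragments). With a length solved from the values themselves for 2411 further genes, 99.5% of the genes above 0 came out whole. The step between whole values gave 14457733 to 18288854 counted fragments per library. All value columns were mapped to samples by their labels. Genes reaching 1 FPKM in 3 or more libraries of a comparison were fitted on log2(FPKM + 1) with limma 3.58.1 in R 4.3.3 (lmFit, eBayes with a trend), each model holding the 2 groups alone, and p-values were adjusted over all genes by Benjamini-Hochberg. This scale understates changes of low genes. DESeq2, used in the study on counts, was not applied to FPKM. For single genes an exact permutation test, two-sided, was used (Python 3.11.15). The fit was tested on simulated data. Replicates were separate mice. The 10 genes and the lists were chosen with earlier results of these data known, and the lists support nothing by themselves. Named were all 10 genes, the list genes called or else the 3 highest, and the 5 genes most like Epx and Prg2. Apart from these, Ccr3, Gata1, Il5, Prss34, Cd200r3, Il6, Il13, IgE receptor and mast cell protease genes were named after their values were seen. Alternatives covered the pseudocount, filter, scaling, weights, model, thresholds, replicate block, voom on recovered fragments, and leaving out each library. Promoters came from RefSeq (GRCm38.p6). Counting error alone underlies the quoted counting variation.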

Additional observations from a re-analysis of the deposited data

How the results depend on the processing

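None of the 10 genes was differentially expressed in any comparison under pseudocount 0.1, no filter, a mean FPKM of at least 0.1, 3 rescalings, all 17 libraries in 1 model, robust eBayes, voom, the replicate block, or without any 1 library (0 to 0 genes called in each comparison). With array weights 5 were called for NE with control, 1 for brimonidine with control and 0 for brimonidine with NE. Of all genes, 0.859% and 0.702% were called higher in the first pair (9 of the 10 in each by adjusted p alone, beside 14.3% and 18.7%). The weights shown in the report, which favour control 3 and give little weight to control 2 and NE 6, go with that change. By adjusted p with no minimum fold the counts were 1 for NE with control, 0 for brimonidine with NE and 1 for brimonidine with control, and by unadjusted p they were 2, 1 and 3 in that order. Exact permutation tests passed 0.05 for 2, 1 and 2 genes, beside 9.7%, 3.81% and 13.2% of all genes higher, with ranges of 1 to 4, 0 to 2 and 1 to 3 when 1 library was left out, the 4 being without NE 6. Directions reversed without 1 library for Il5ra in NE with control (−0.0084 without control 1, up to 0.2918), Prg3 in brimonidine with control (−0.0291 without control 3, up to 0.4468), Ear1 in brimonidine with NE (−0.0138 without brimonidine 2, up to 0.1684) and Ear2 there (−0.0477 to −0.0096, without brimonidine 2, brimonidine 3 or NE 6, the last at −0.0232, up to 0.1243), and under array weights for Ear1 (−0.089) and Ear2 (−0.1064) there. Over NE with control, median ratio and quantile scaling moved the median of all genes from −0.044 to 0.057 and 0.063, and that of the 10 genes from 0.47 to 0.58 and 0.31, leaving all 10 positive. Samples with the same replicate number did not deviate together (correlations from −0.221 to 0.083), so the numbers do not pair them. With the replicate block Siglecf had limma adjusted p = 0.279 and 0.157 in the comparisons with control (log2 fold changes 0.46 and 0.63), and 0 genes in all were differentially expressed for NE with control against 918 without it. In every other alternative of these comparisons Siglecf kept an adjusted p under 0.05. Il5ra rested on 21 to 97 fragments per library, and both comparisons with control rested on 3 control libraries.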
